A study of Homo sapiens with 12 samples.

Results

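U1 small nuclear RNA is the RNA core of the U1 particle, which marks the start of an intron by base pairing with the 5′ splice site. The RNA is made by RNA polymerase II from many near-identical genes, ends without a poly(A) tail, and is assembled with the Sm ring and proteins encoded by SNRNP70, SNRPA and SNRPC. The genes followed here are a list of 10 U1 genes and U1 copies that contain the whole target of a U1 siRNA. They are RNU1-1, RNU1-2, RNU1-3 and RNU1-4, the variant genes RNVU1-1, RNVU1-18 and RNVU1-19, and RNU1-11P, RNU1-27P and RNU1-28P. Symbols that end in P are those given to pseudogenes. They are 10 of 58735 annotated genes and 10 of 132 genes with a U1 symbol. A further 16 genes are annotated as U1 only by the Rfam family name RF00003.

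RNA was sequenced from HEK293T, an established line of human kidney origin with the T antigen of SV40, in 12 libraries that fall into 4 groups of 3. All cells were transfected and harvested after 24 hours. A first pair of groups received 500 ng of a plasmid, either one for the microRNA miR-211 or a control plasmid. The other pair received either a U1 siRNA of the Dicer-substrate kind, at 1 nM, or a scrambled oligo whose dose the labels do not give. The titles of these 6 samples also carry the word WT, which the plasmid titles lack and the labels do not explain. Transfection efficiency was at least 50% by the labels, judged by GFP, so each library mixes transfected and untransfected cells. The labels also state that the siRNA inhibited U1 by 30%, without the method. Whether the 3 libraries of a group stem from separate cultures is not given in the labels, and the spread that p-values rest on may be technical. Since the samples are bulk RNA, fewer cells with a copy active and less RNA per cell cannot be told apart.

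The sequence of the genes decides what a count of them can show. In the labels the siRNA is 27 bases long, and its reverse complement is the target in U1 RNA. In RNU1-1, shown whole, capitals mark the bases that pair with the 5′ splice site (1 to 11) and the siRNA target (107 to 133), counted from the 5′ end.
siRNA: ccacaaattatgcagtcgagtttccca
target: tgggaaactcgactgcataatttgtgg
RNU1-1: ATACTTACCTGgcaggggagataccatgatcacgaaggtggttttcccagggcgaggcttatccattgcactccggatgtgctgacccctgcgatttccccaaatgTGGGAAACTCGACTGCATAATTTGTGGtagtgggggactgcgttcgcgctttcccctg

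RNU1-2, RNU1-3, RNU1-4, RNVU1-18, RNU1-27P and RNU1-28P have the same 164 bases as RNU1-1. By symbol, 2 of these 7 are nonetheless pseudogenes and 1 is a variant gene. Together with 1 Rfam gene, 8 annotated genes share this sequence. The other 3 members differ, and their differences from RNU1-1 stand in capitals below, because they are the members that a read can tell apart.
RNVU1-1: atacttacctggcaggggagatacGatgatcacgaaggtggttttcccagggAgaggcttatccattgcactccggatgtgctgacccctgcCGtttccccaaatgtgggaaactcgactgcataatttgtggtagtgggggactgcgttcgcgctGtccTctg
RNU1-11P: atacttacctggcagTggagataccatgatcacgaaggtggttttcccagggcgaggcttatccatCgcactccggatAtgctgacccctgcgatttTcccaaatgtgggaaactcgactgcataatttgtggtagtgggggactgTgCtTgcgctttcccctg
RNVU1-19: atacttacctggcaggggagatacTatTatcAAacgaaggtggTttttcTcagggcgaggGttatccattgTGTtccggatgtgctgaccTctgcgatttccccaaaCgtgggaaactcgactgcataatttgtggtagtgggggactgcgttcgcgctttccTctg

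RNVU1-1 carries 6 differences, C25G, C53A, G93C, A94G, T157G and C161T, with the RNU1-1 base first and positions counted from its 5′ end. RNU1-11P carries 7 differences, G16T, T67C, G79A, C98T, C147T, T149C and C151T. RNVU1-19 carries 13, of which 3 are extra bases, so that it is 167 bases long and its target lies at bases 110 to 136. None of these changes touches the splice site pairing bases or the target.

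The 5′ end and the Sm site, short motifs of U1 RNA, were searched on both strands of the annotated sequences. The splice site pairing bases ATACTTACCTG were in 10 of 10 members, in 21 of 122 other U1 copies (17.2%) and in 36 of 1900 annotated small nuclear RNA genes (1.89%). These letters were read from RNU1-1, so their match in the 7 members with its sequence was fixed in advance. The Sm site AATTTGTGG, where the Sm ring forms, was in 10 of 10 members, in 48 of 122 other copies (39.3%) and in 70 of 1900 small nuclear RNA genes (3.68%). It covers bases 125 to 133 of RNU1-1 and so lies within the siRNA target, and its presence in every member follows from how the members were chosen. A motif match describes the letters only. The whole target was in 14 annotated genes of all kinds. These were the 10 members, RNVU1-7 and 3 Rfam genes. Another 3 Rfam genes had no sequence to search, so whether they hold the target is not known. Those without a sequence held 211 counts over the 12 libraries. The siRNA sequence itself, in the opposite orientation, was in 0 annotated transcripts.

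Among U1 copies by symbol, the most counted ones outside the list lack the whole target. Their matching stretches are shown with differences from the target in capitals. RNVU1-7, with 1 difference elsewhere (T150C), matches the target in full.
RNVU1-6: tgggaaactTgactgTataatttgtgg
RNU1-85P: tgggaaactTAaTtgcataatttgtgg
RNVU1-15: tgAgGaactcgactgcataaCttgtgA
RNVU1-4: tgggaaTctTgaTtAcataatttgtgg

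These stretches hold 2 differences in RNVU1-6, 3 in RNU1-85P, 4 in RNVU1-15 and 4 in RNVU1-4.

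**Figure D1:**
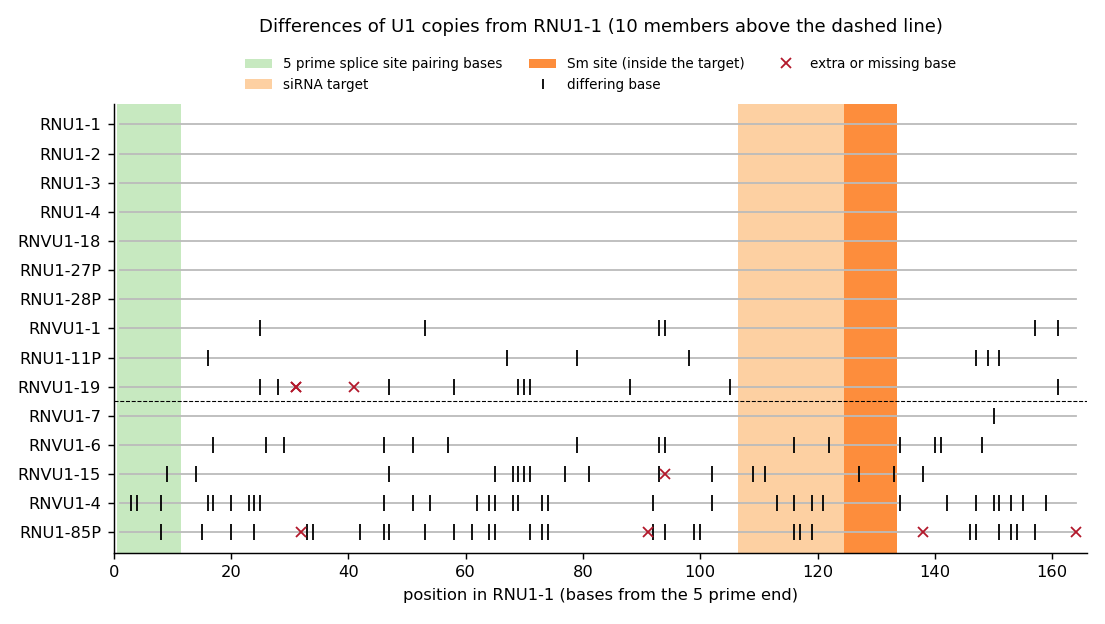
Positions at which U1 copies differ from RNU1-1, along its 164 bases (horizontal axis), with the 10 members above the dashed line and 5 other copies below. Black ticks are differing bases, red crosses extra or missing bases, and shading marks the splice site pairing bases, the siRNA target and the Sm site; 7 members have no mark, and no member has one inside the target.

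In the annotation used for names (GENCODE 29, GRCh38), 7 of the members lie on chromosome 1. RNU1-1 is at chr1:16514122-16514285 on the minus strand, outside other genes. RNU1-3 is at chr1:16666785-16666948 on the minus strand and overlaps an exon of AL137798.2, a long noncoding RNA gene on the plus strand. RNU1-4 is at chr1:16740516-16740679 on the plus strand and overlaps an exon of the noncoding gene AL021920.3 on the minus strand, inside introns of CROCC and CROCCP4. RNU1-2 is at chr1:16895980-16896143 on the plus strand, in an intron of CROCC, a ciliary rootlet gene. The variant genes lie farther along: RNVU1-19 at chr1:120850819-120850985, RNVU1-18 at chr1:143729407-143729570 and RNVU1-1 at chr1:148362370-148362533, all on the minus strand. RNVU1-1 falls in an intron of LINC01138. RNU1-11P is at chr6:13214056-13214219 on the plus strand, in an intron of PHACTR1. RNU1-27P at chr14:34546714-34546877 (plus strand) and RNU1-28P at chr14:34556226-34556389 (minus strand) are neighbours that face opposite ways.

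Few read pairs were counted for these genes. Totals in genes ranged from 4515728 to 9290686 pairs per library, and the 10 members held 365 of 82052206 counts in all, or 4.45 CPM (counts for every 1000000 counts in genes). U1 copies of every kind held 3235 counts, of which the members made up 11.3%. Reads were 126 bases long. Of the 39 stretches of that length in the shared sequence, 0 are unique among annotated transcripts, whereas all 39 in RNVU1-1, all 39 in RNU1-11P and all 42 in RNVU1-19 are. Pairs that mapped to several places are listed apart from the gene counts, as 2.72% to 3.33% of all pairs, without gene names. The values below are therefore the pairs that were assigned to 1 copy, not the amount of U1 RNA. A pair wholly inside the shared 164 bases fits 8 annotated genes alike, so an alignment that holds them all cannot assign it to 1 copy. The counts do not show where the assigned pairs lay, or whether they came from finished U1 RNA.

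One library stands apart. Replicate 2 of the U1 siRNA group had the fewest counts in genes (4515728) and the largest share of uniquely mapped pairs outside exons, 44.5% against 14.5% to 25.5% in the other 11. It also had the largest number of other U1 copies with a count, 43 against 19 to 38. Markers of other cell types summed highest in it: fibroblast markers to 15.1 CPM (2.36 to 6.28 in the others), blood markers to 8.64 CPM (2.32 to 4.14) and melanocyte markers to 22.6 CPM (11.5 to 18.3). The melanocyte sum was mostly MITF. Of the genes listed as HEK293T markers, NEFL, NEFM, EYA1 and WT1 were present in every library. PAX2 and LHX1 were at or under 0.67 CPM and NEFH was at 0 to 1.99 CPM. The HEK293T sum was mostly NEFL, a neurofilament gene (73.1 to 108 CPM), while EYA1 and WT1 reached at most 9.74 and 6.64 CPM. The sum of the members and the 4 counted members are also given without this library in the siRNA comparison. The part of these features in the U1 values was not tested.

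Counts were spread unevenly over the 10 members. RNU1-2 had 161 counts over the 12 libraries, RNU1-1 had 108, RNVU1-18 had 56 and RNU1-4 had 29, and these 4 together held 97.0% of the members' counts. RNU1-27P had 5 counts, RNU1-11P had 3, RNU1-3 had 2 and RNU1-28P had 1. RNVU1-1 and RNVU1-19 had 0 counts, which allows a level of up to 0.0366 CPM (3 counts over the 12 libraries, for counting error only). The 7 members with the shared sequence held 362 counts and the 3 with a sequence of their own held 3. All members but RNVU1-19 have the same length, but their counts are not like for like, since pairs that mapped to several places are left out and 0 of the 39 stretches of the shared sequence are unique. They give no order of the copies by amount of RNA.

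The 122 other U1 copies by symbol held 1850 counts, against 365 for the 10 members. That sum runs over many more genes, so it does not show that other copies were counted more often copy by copy. Of the 122, 76 had a count in some library. RNVU1-6 led with 476 counts, followed by RNVU1-15 with 386, RNVU1-4 with 256, RNU1-85P with 158 and RNVU1-7 with 73. All but RNVU1-7 carry many differences from RNU1-1, as the plot of counts by number of differences shows. RNU1-2, the most counted member, had fewer counts than RNVU1-6, RNVU1-15 and RNVU1-4, with the same limit on what counts of different copies show. Some Rfam genes were also above it, with up to 324 and 286 counts.

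**Figure D2:**
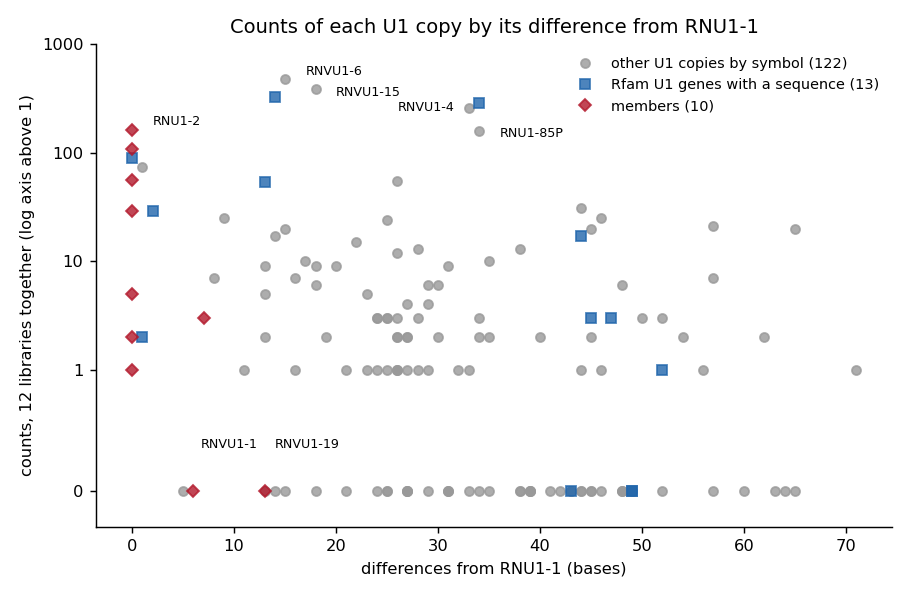
Counts of each U1 copy summed over the 12 libraries (vertical axis, logarithmic above 1) against its number of differences from RNU1-1 (horizontal axis). Red diamonds are the 10 members, from 0 counts (RNVU1-1, RNVU1-19) to 161 (RNU1-2); grey circles are 122 other copies by symbol, up to 476 counts (RNVU1-6), and blue squares 13 Rfam genes with a known sequence.

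RNU1-2 had 9, 4 and 6 counts in the 3 libraries given the siRNA and 11, 13 and 10 in the scrambled ones. As levels these are 1.42, 0.886 and 1.05 CPM against 1.50, 2.20 and 1.08 CPM. The lowest scrambled library lies inside the siRNA range, so the groups overlap. With the miR-211 plasmid RNU1-2 had 26, 8 and 14 counts, and with the control plasmid 34, 16 and 10. The first library of each plasmid group was far above the others, at 4.28 and 5.46 CPM against 0.946 to 2.30 CPM.

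RNU1-1 was counted 6, 4 and 7 times in siRNA libraries and 11, 7 and 6 times in scrambled libraries, or 0.946, 0.886 and 1.22 CPM against 1.50, 1.19 and 0.646 CPM. The siRNA values fall within the scrambled range. With miR-211 it had 15, 16 and 6 counts and with the control plasmid 12, 10 and 8, again with overlapping ranges (0.776 to 2.47 CPM and 1.07 to 1.93 CPM).

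RNVU1-18, a variant gene with the shared sequence, had 5, 0 and 2 counts with the siRNA and 6, 3 and 9 with the scrambled oligo. Its levels were 0 to 0.788 CPM and 0.508 to 0.969 CPM, so that only the first siRNA library reached the scrambled range. With miR-211 it had 11, 5 and 3 counts and with the control plasmid 7, 2 and 3.

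RNU1-4 had 1, 0 and 0 counts with the siRNA and 2, 2 and 4 with the scrambled oligo. Its levels of 0 to 0.158 CPM lay below the 0.273 to 0.431 CPM of the scrambled libraries without overlap. With miR-211 it had 6, 2 and 4 counts and with the control plasmid 4, 1 and 3, where the ranges overlap. RNU1-4 shares its stretch with AL021920.3 on the other strand, and a count without regard to strand leaves out pairs that fit both genes. It had 29 counts in that column and 38 when both strand-specific columns were added, and RNU1-3, which overlaps AL137798.2, had 2 and 6. The other 8 members had equal totals both ways.

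The remaining members were counted at most once per library. RNU1-11P had 1 count in each of the 3 scrambled libraries and 0 in the other 9. RNU1-27P had 1 count in each scrambled library, in the first siRNA library and in the first control plasmid library. RNU1-3 had 1 count in scrambled replicate 2 and 1 in control plasmid replicate 3, and RNU1-28P had 1 in control plasmid replicate 3. A copy with 1 count in a library cannot be told from one with 0 at this depth.

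**Figure D3:**
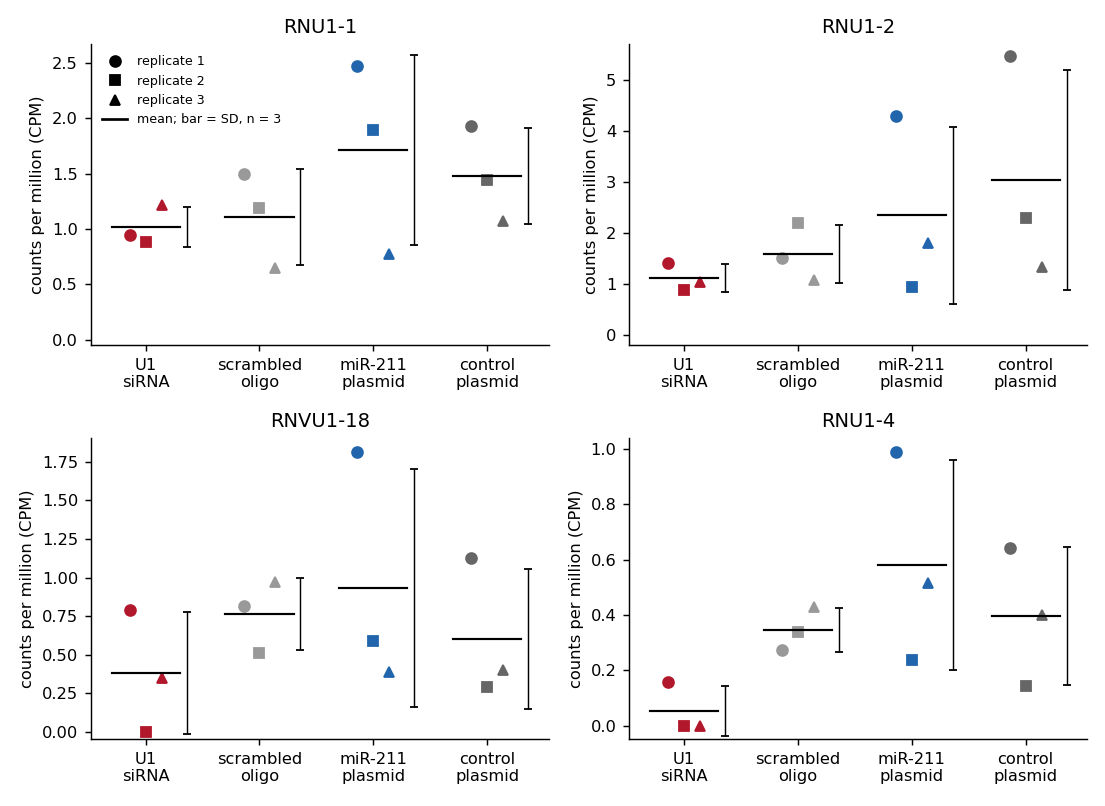
Level of the 4 members with 10 or more counts, in CPM (vertical axis, own scale per panel), for each library of the 4 groups; marker shape gives the replicate number, the line the mean and the bar the SD (n = 3). Replicate 1 of both plasmid groups is high in RNU1-2 (4.28 and 5.46 CPM), and RNU1-4 is lower in each U1 siRNA library than in any scrambled library.

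The first comparison asks whether the counted U1 copies were lower with the siRNA. Summed over the 10 members, the U1 siRNA libraries held 22, 8 and 15 counts and the scrambled libraries 32, 28 and 31. The summed levels were 3.47, 1.77 and 2.61 CPM with the siRNA and 4.36, 4.74 and 3.34 CPM with the scrambled oligo. Only the first siRNA library reached the scrambled range, just above its lowest library. The means were 2.62 ± 0.848 CPM (SD, n = 3) and 4.15 ± 0.727 CPM (SD, n = 3), a difference of -36.9%, or -0.66 as a log2 ratio of means. The totals, 45 against 91 counts, gave a ratio per counted pair of 0.671, with an exact 95% interval of 0.459 to 0.970 that covers counting error only. Without replicate 2 of the siRNA group the difference was -26.7% and the ratio 0.758 (0.503 to 1.12), an interval that includes 1. Leaving out siRNA replicate 3 (0.437 to 1.04), scrambled replicate 1 (0.463 to 1.05) or scrambled replicate 2 (0.477 to 1.07) also gave intervals that include 1. So did smaller sets of members in all libraries. The ratio was 0.694 (0.474 to 1.005) for the 7 with the shared sequence and 0.750 (0.488 to 1.14) for RNU1-1 to RNU1-4. The labels' 30% inhibition is given without its method. It cannot be set against these values as a like measure, since they are pairs assigned to 1 copy and not the amount of U1 RNA.

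Single members showed no difference past a test. An exact 2-sided permutation test of 3 against 3 libraries cannot give a p below 0.1, and 14 such tests were made over members and both comparisons. RNU1-4 reached p = 0.1 in the exact test (adjusted p = 0.7), with 1 against 8 counts and a ratio of totals of 0.170 (0.0038 to 1.27). RNU1-11P also reached an exact p of 0.1 (adjusted p = 0.7), but with 0 against 3 counts both groups are at or under the floor, and no fold is given. The ratio of totals was 0.528 (0.186 to 1.32) for RNVU1-18 and 0.759 (0.409 to 1.37) for RNU1-2, each with an exact p of 0.2. For RNU1-1 it was 0.962 (0.485 to 1.87), with an exact p of 0.9. Without siRNA replicate 2 the log2 ratio of means was -0.43 for RNVU1-18, in place of -1.01, and it ranged from -2.13 to -0.43 when 1 library was left out. For RNU1-2 it was -0.37 in place of -0.51, for RNU1-1 -0.04 in place of -0.13, and for RNU1-4 -2.14 in place of -2.72. These intervals of the ratios of totals are wide enough to hold both a large fall and no change.

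Across the table of genes, RNU1-4 and RNU1-11P, 2 of 10 members, were lower without overlap between the groups. Of the 12413 genes that passed the filter on low counts, 2.92% were lower without overlap and 3.54% higher, 6.45% in either direction. None of the 10 members passed that filter, so none was among the genes tested. In edgeR's quasi-likelihood test with Benjamini-Hochberg adjustment, 0 of 12413 genes passed an adjusted p of 0.05 (0%), and 196 had an unadjusted p under 0.05. DESeq2 and limma-voom also called 0, with 77 and 180 genes under that unadjusted p.

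The 14 genes with the whole target, which add RNVU1-7 and 3 Rfam genes, had summed levels of 5.68, 2.88 and 5.05 CPM with the siRNA and 6.81, 6.78 and 5.92 CPM with the scrambled oligo. Every siRNA library was below every scrambled library. The difference was -30.3%, and the ratio of totals, 78 against 145 counts, was 0.730 (0.547 to 0.968). Without siRNA replicate 2 it was -17.5%, with a ratio of 0.836 (0.614 to 1.13), and the interval also included 1 without scrambled replicate 1 (0.550 to 1.02) or 2 (0.548 to 1.01). RNVU1-7 alone had 9 against 26 counts, a ratio of 0.470 (0.194 to 1.03) with an exact p of 0.2. The 3 Rfam genes without a sequence, which may or may not hold the target, are not in these sums. The most counted of them had 35 against 38 counts, a ratio of 1.25 (0.767 to 2.03).

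U1 copies without the whole target gave other values. Summed over 121 such copies, the siRNA libraries had 21.0, 29.7 and 20.2 CPM and the scrambled libraries 19.9, 22.0 and 20.3 CPM. The ratio of totals was 1.12 (0.974 to 1.28), and without siRNA replicate 2, the high library, it was 0.999 (0.853 to 1.17). For 18 genes of the other spliceosomal small nuclear RNAs, such as U2, U4, U5 and U6, the ratio was 1.08 (0.908 to 1.28). Whether copies with and without the target differ in their response was not tested.

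Single copies without the whole target went both ways. RNVU1-4 was lower without overlap, with 47 against 89 counts and a ratio of 0.717 (0.492 to 1.03). RNVU1-15 was higher without overlap, at 4.65 to 5.40 CPM against 3.66 to 4.09 CPM, with a ratio of 1.28 (0.935 to 1.75). Their edgeR log2 fold changes were -0.47 (SE 0.30) and 0.34 (SE 0.26), neither past the threshold. RNVU1-6, the most counted copy, had a ratio of 1.05 (0.781 to 1.40), and RNU1-85P one of 0.914 (0.570 to 1.45). One Rfam gene, ENSG00000274210, was named after its values were seen. It has 14 differences from RNU1-1, of which only 1 lies in the target stretch. It had 51 against 108 counts with no overlap and a ratio of 0.641 (0.450 to 0.902). With miR-211 the same gene had 101 against 64 counts, higher without overlap, and the difference between both effects was -1.21 on the log2 scale (SE 0.38, edgeR adjusted p = 0.999).

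**Figure D4:**
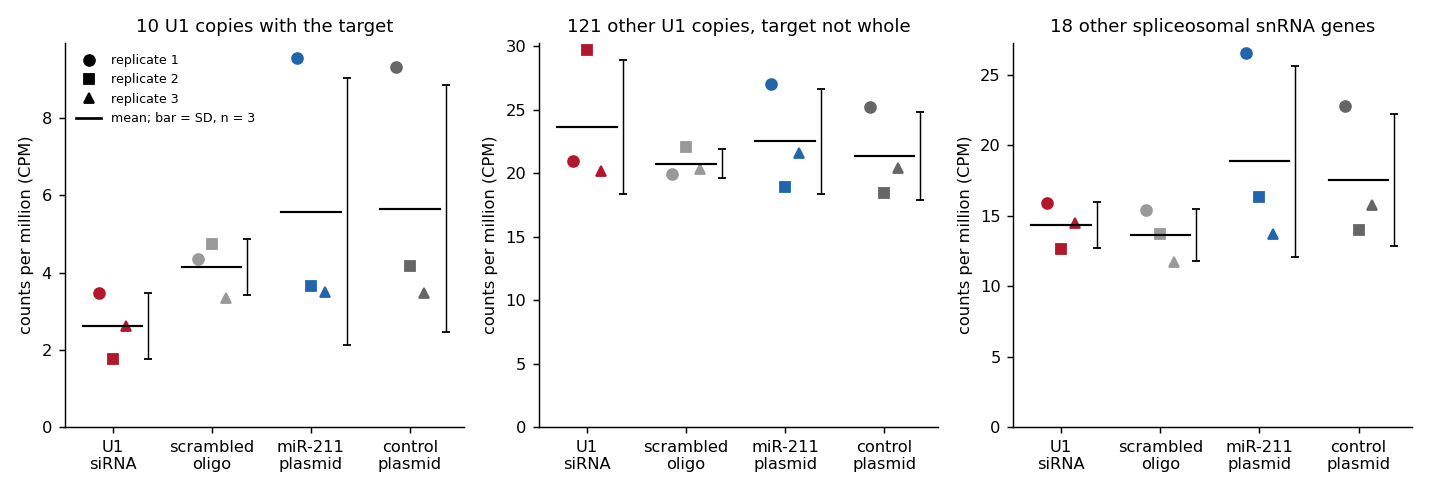
Summed level in CPM (vertical axis, from 0) per library and group. Panels show the 10 members, 121 other U1 copies by symbol without the whole target (no Rfam genes) and 18 other spliceosomal small nuclear RNA genes. Lines are means and bars SD (n = 3). Members lie between 1.77 and 3.47 CPM with the siRNA and between 3.34 and 4.74 CPM with the scrambled oligo, and replicate 1 of both plasmid groups is highest in the panels of members and of other small nuclear RNAs.

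The second comparison, miR-211 plasmid against control plasmid, used no siRNA. The 10 members had 58, 31 and 27 counts with miR-211 and 58, 29 and 26 with the control plasmid. Their summed levels were 9.56, 3.66 and 3.49 CPM against 9.32, 4.17 and 3.47 CPM, so replicate 1 of each group was far above the others and the groups overlapped. The means were 5.57 ± 3.45 CPM (SD, n = 3) and 5.65 ± 3.19 CPM (SD, n = 3), a difference of -1.48%. The ratio of totals was 0.953 (0.729 to 1.25). Leaving out replicate 1 of the miR-211 group gave -36.7%, and leaving out replicate 1 of the control group gave +45.7%, because each group then loses its high library.

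Those 2 libraries were also high in other small nuclear RNAs. The 18 other spliceosomal genes summed to 26.5 and 22.8 CPM in them, against 13.7 to 16.3 CPM in the other 4 plasmid libraries. The 121 other U1 copies by symbol without the whole target summed to 27.0 and 25.2 CPM, against 18.4 to 21.6 CPM. The part of this in the members' values was not tested.

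RNU1-1 and RNU1-2 passed the filter in this comparison, as 2 of 10 members. The edgeR log2 fold change was 0.23 (SE 0.44) for RNU1-1 and -0.38 (SE 0.52) for RNU1-2, both with an adjusted p of 0.996. Of 12685 genes tested, 1 passed (0.00788%), the gene of the transfected microRNA, MIR211, with a log2 fold change of 8.88 (SE 0.23). No member's groups were free of overlap, against 9.70% of genes in either direction, 6.42% lower and 3.29% higher. For RNU1-4 the ratio of totals was 1.39 (0.523 to 3.93), and for RNVU1-18 it was 1.47 (0.677 to 3.32), each with an exact permutation p of 0.6. RNU1-4 was higher in 3 of 3 same-numbered pairs of libraries, but its log2 ratio of means, 0.55, was -0.07 without miR-211 replicate 1 and -0.03 on the first strand-specific column. That of RNVU1-18, 0.62, was -0.30 without miR-211 replicate 1. The 14 genes with the whole target gave a ratio of 0.986 (0.798 to 1.22).

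**Figure D5:**
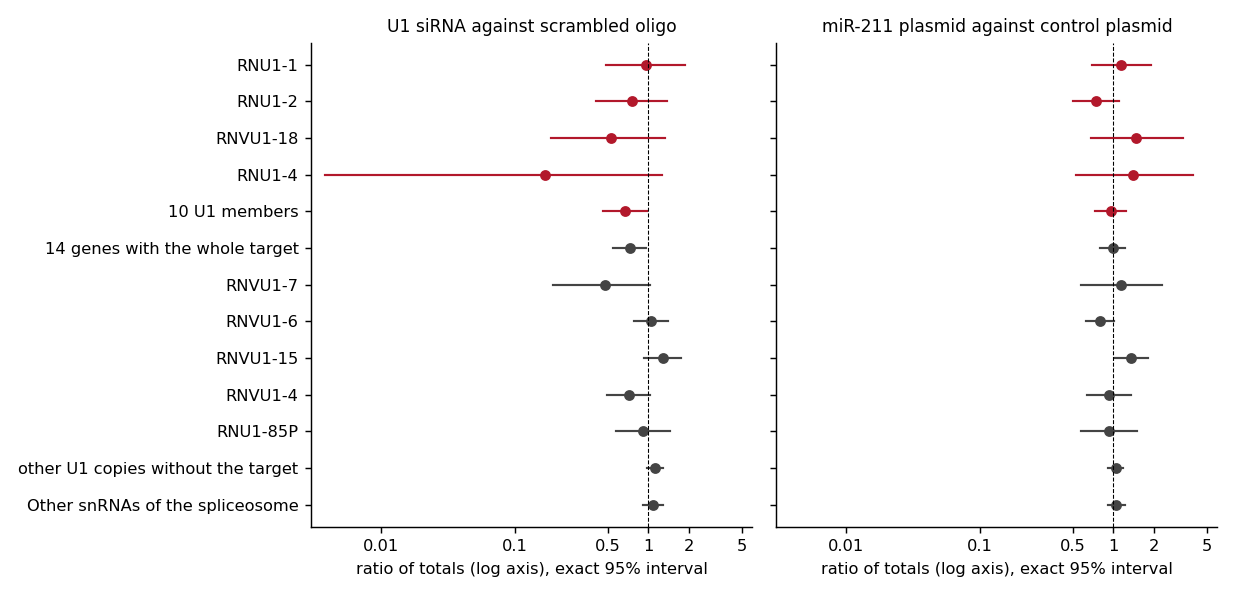
Ratio of total counts per counted pair between groups (horizontal axis, logarithmic) with its exact 95% interval, which covers counting error only, for the 4 counted members, their sum, the 14 genes with the target and other copies; the dashed line is a ratio of 1. With the siRNA the sum of members is at 0.671 (0.459 to 0.970), while with miR-211 it is at 0.953 (0.729 to 1.25).

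Both effects were set against each other over all 12 libraries in edgeR, as the effect of the siRNA minus that of miR-211. The difference was -0.31 (SE 0.71) for RNU1-1 and -0.07 (SE 0.80) for RNU1-2 on the log2 scale, both with an adjusted p of 0.999. The other 8 members did not pass the filter of this test.

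The 4 groups can be put in order of their summed level, from 2.62 CPM with the U1 siRNA through 4.15 CPM with the scrambled oligo and 5.57 CPM with miR-211 to 5.65 CPM with the control plasmid. The ranges of each group and its neighbour in this order overlap. Without its replicate 1 the miR-211 group had a mean of 3.58 CPM and the control plasmid group one of 3.82 CPM, both below the scrambled oligo, so the place of the plasmid groups in this order rests on those libraries. Each copy's share of the members' counts is given with an exact binomial 95% interval. RNU1-2 held 42.2% (27.7 to 57.8) with the siRNA, 37.4% (27.4 to 48.1) with the scrambled oligo, 41.4% (32.3 to 50.9) with miR-211 and 53.1% (43.5 to 62.5) with the control plasmid. RNU1-4 held 2.22% (0.0562 to 11.8) with the siRNA and 7.08% to 10.3% in the other groups. All of these intervals overlap.

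Among the 4 counted members, levels varied together across the 12 libraries to different degrees. Pearson's r of log2(CPM + 1) was highest for RNU1-4 with RNVU1-18, 0.79, and lowest for RNU1-1 with RNU1-4, 0.43. RNU1-1 and RNU1-2 gave 0.63. These points share libraries and depth, the counts are sparse, and no test is attached. Over 14204 genes with a mean of at least 1 CPM that are not U1 copies, the 5 most like the members' sum across the 12 libraries were SLC38A1 (r = 0.94), an amino acid transporter, SSR1 (0.94), of the endoplasmic reticulum translocon, TXNRD1 (0.91), a thioredoxin reductase, TNPO1 (0.90), a nuclear import receptor, and TRIP12 (0.90), a ubiquitin ligase. SLC38A1 ranged only from 408 to 483 CPM, while the members' sum ranged from 1.77 to 9.56 CPM. As the highest of 14204 genes, these 5 have a high r by selection. The sum was far higher in replicate 1 of both plasmid groups than elsewhere. Spearman's rho, which uses ranks only, ran from 0.73 (TNPO1) to 0.93 (SLC38A1).

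The proteins that build U1 were followed as fixed lists. SNRNP70, which encodes the protein that binds the first stem-loop of U1, was at 15.7 ± 1.49 CPM (SD, n = 3) with the siRNA and 15.6 ± 2.97 CPM (SD, n = 3) with the scrambled oligo, a log2 fold change of 0.002 (SE 0.16). SNRPA, whose protein binds another stem-loop, gave -0.05 (SE 0.12), and SNRPC, whose protein steadies the pairing with the splice site, gave 0.02 (SE 0.07). With miR-211 these were 0.06 (SE 0.15), -0.07 (SE 0.13) and 0.08 (SE 0.07) for SNRNP70, SNRPA and SNRPC. Of 11 genes for U1 particle proteins, 10 were tested and 0 passed in either direction in either comparison. Their median log2 fold change was -0.02 with the siRNA and 0.06 with miR-211, beside 0.02 and 0.01 over all genes tested.

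Genes for the making of U1 gave the same count. Of 11 genes for its transcription, such as the SNAPc subunits, 10 were tested, with a median of -0.01 with the siRNA and -0.05 with miR-211. Of 14 Integrator genes, which cleave the 3′ end, 13 and 14 were tested, with medians of 0.03 and -0.07. All 22 genes of export, Sm ring assembly and trimming were tested, with medians of 0.005 and -0.05. All 12 genes for partners of U1 at the 5′ splice site, such as LUC7L and PRPF8, were tested, with medians of -0.03 and -0.06. In these lists 0 genes passed the edgeR test in either direction in either comparison, nor did DESeq2 or limma-voom call any. An unadjusted p under 0.05 was seen for 0 of their genes with the siRNA and for INTS9 and PRPF8 with miR-211.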

How the data were processed

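Paired-end RNA-seq of 12 HEK293T libraries was deposited by the authors as read pair counts per gene, whole numbers that are not normalized, in an unstranded column (used here) and 2 strand-specific columns. Per the submitters' processing notes, STAR 2.7.2a was used with GRCh37 (hg19). All 58735 gene identifiers match GENCODE 29, which is on GRCh38. The coordinates given are those of GENCODE 29, and which sequence was aligned to is not settled by the files. How libraries were prepared and reads mapped is not stated further in the labels. The 4 summary lines (unmapped, multimapped, no feature, ambiguous) were left out of totals. Counts were divided by each library's total in genes to give CPM.

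Whole tables were tested with edgeR 4.0.16 (filterByExpr, TMM scaling, quasi-likelihood test, Benjamini-Hochberg adjustment, threshold 0.05) in R 4.3.3, and checked on simulated data with known changes. DESeq2 1.42.0, limma-voom 3.58.1, other scalings, no filter, the strand columns, a replicate block and leaving out each library were alternatives. Single members were compared by an exact permutation test on CPM, and totals by an exact binomial 95% interval. Depth ranged from 4515728 to 9290686 counts, and intervals cover counting error only. Sequences came from the GENCODE 29 transcripts, in which 3 of the 16 Rfam genes were not matched.

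Other U1 copies were named where some library held 10 or more of their counts, and the 5 genes most like the members by Pearson's r. The members and lists were chosen with earlier results of these data known. Replicate numbers come from the sample titles. In the plasmid comparison, same-numbered libraries deviated together (correlations 0.254, 0.244 and 0.259), so the numbers may pair them. The main fits, permutation tests and intervals did not use these pairs. Paired values are given only as alternatives, with a replicate block or ratios of same-numbered libraries.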

Additional observations from a re-analysis of the deposited data

Results flagged for a closer look

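The mean level of RNU1-4 was lower with the U1 siRNA than with the scrambled oligo (difference -0.295 CPM) and higher with the miR-211 plasmid than with the control plasmid (difference 0.185 CPM), and neither difference passed its test. In exact permutation tests p was 0.1 with the siRNA (adjusted p = 0.7) and 0.6 with miR-211 (adjusted p = 1). What drew attention to it is that all siRNA libraries lay below all scrambled libraries, while the miR-211 library was higher in 3 of 3 same-numbered pairs. The direction with miR-211 was not stable: the log2 ratio of 0.55 ranged from -0.07 to 1.09 when 1 library was left out, with the lowest value without miR-211 replicate 1, and from -0.03 to 1.53 under other settings, with the lowest on the first strand-specific column. The difference between both effects was not tested, since RNU1-4 did not pass the filter on low counts. It rests on 1 against 8 and 12 against 8 counts.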

How the results depend on the processing

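The summed level of the 10 members stayed lower with the U1 siRNA under all 14 alternatives tried: the log2 ratio was -0.66, and -0.71 to -0.51 under other scalings, columns and members, and -0.92 to -0.45 when 1 library was left out. That covers direction only, since the interval of the ratio of totals for RNU1-1 to RNU1-4 (0.488 to 1.14) includes 1. For miR-211 the log2 ratio of the sum was -0.02, and -0.22 to 0.12 under other settings, and -0.66 to 0.54 when 1 library was left out. The edgeR log2 fold change in the miR-211 comparison was -0.090 for RNU1-1 without miR-211 replicate 1. For RNU1-2 it was 0.30 without control replicate 1 and 0.02 without miR-211 replicate 2. Over these fits it ranged from -0.090 to 0.59 for RNU1-1 and from -1.08 to 0.30 for RNU1-2. With no filter on low counts edgeR called 7 genes with the siRNA and 2 with miR-211 (MIR211 and AC010255.3), none a U1 copy by symbol. Whether the 7 include an Rfam U1 gene was not looked up. On each strand column it called 2 with miR-211 (MIR211 and MIR3120). With 1 library left out it called 0 with the siRNA and 1 with miR-211 in every fit. With a replicate block, edgeR called 0 genes with the siRNA and 1 with miR-211, and the test of the difference between both effects called 0 in place of 1 (MIR211). The block gave 0.21 for RNU1-1 and -0.34 for RNU1-2 with miR-211, and the mean log2 ratio of same-numbered libraries was -0.70 for the members' sum with the siRNA and -0.05 with miR-211. In the siRNA comparison the correlations of same-numbered libraries were 0.124, 0.109 and -0.0155, and whether the numbers pair these libraries is not known. Depth limits the single members most, with 365 counts over 10 genes.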
